A study of Mus musculus with 2 samples.

Results

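Circulating leukocytes carry chemoattractant receptors that decide where they leave the blood and when they return to it, and 9 of these receptor genes were followed here: Cxcr4, S1pr1, S1pr5, Ccr7, Cxcr3, Cxcr6, Ccr9, Ccr2 and Cx3cr1. They were chosen by symbol from the 27998 genes listed for each library, and each symbol occurred once. The blood came from female C57Bl/6 mice aged 10 weeks, either wildtype at Mvk, the gene of mevalonate kinase, or carrying the V377I allele on one chromosome and the del91 allele on the other, a model of mevalonate kinase deficiency. Each genotype gave 1 single-cell RNA-seq library, for which blood of 3 mice was pooled. Mononuclear cells were taken over a density gradient, red cells were lysed, and live cells lacking the red cell antigen Ter119 were sorted. Effects of genotype, of the mice pooled and of the library cannot be told apart, so no test or p-value was possible and every value below describes these libraries. Intervals are 95% and cover counting error only.

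All 9 genes encode receptors coupled to G proteins. CXCR4, the receptor of CXCL12, holds leukocytes in bone marrow, while S1PR1 and S1PR5 sense sphingosine-1-phosphate, which is abundant in blood, and draw lymphocytes and NK cells out of tissues. CCR7 directs T and B cells into lymph nodes. CXCR3, CXCR6 and CCR9 lead effector and memory cells to inflamed tissue, liver and gut, CCR2 brings classical monocytes out of the marrow, and CX3CR1 marks patrolling monocytes and mature NK cells.

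On GRCm38 the genes lie at chr1:128588199-128592293 (Cxcr4, minus strand), chr3:115710433-115715072 (S1pr1, minus), chr9:21242912-21248443 (S1pr5, minus), chr11:99144196-99155077 (Ccr7, minus), chrX:101731535-101734269 (Cxcr3, minus), chr9:123806475-123811760 (Cxcr6, plus), chr9:123678439-123784330 (Ccr9, plus), chr9:124101950-124113557 (Ccr2, plus) and chr9:119901616-120069879 (Cx3cr1, minus). Cxcr6 lies wholly inside Fyco1, which is read from the opposite strand and had 132 UMIs in the mutant against 189 in the wildtype cells. Ccr9 overlaps Lztfl1 on the opposite strand, and the Cx3cr1 gene spans Csrnp1 on its own strand (504 and 669 UMIs). Whether reads were counted by strand is not given in the sources used here, so UMIs of these overlapping genes could be exchanged.

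Cxcr3 and Cxcr6 were both highest in memory-like T cells, so short stretches of their promoters are printed with that of Cx3cr1, the other member holding the same letters. RefSeq promoter windows on GRCm38.p6, from 250 bases before to 50 bases after the start, were given for 7 of the 9 genes. The core ACCACA, known as the binding motif of RUNX factors, was searched on both strands and stands in capitals. It occurred in Cxcr3 (at 2 places), Cxcr6 and Cx3cr1 and in 16.8% of all 32851 promoter windows, so its presence is a description and not a binding site. Distances are from the RefSeq start, which for Cxcr3 and Cx3cr1 lies inside the gene as given above.
Cxcr3, chrX:101734241-101734267, minus strand, 110 bases before the start: tattcacctgACCACAggcgtggcaga
Cxcr6, chr9:123806457-123806483, plus strand, 10 bases before the start: ggaaacacagACCACAtcacagagaac
Cx3cr1, chr9:120068334-120068360, minus strand, 54 bases before the start: aagatagggtACCACAcaggaaaccag
The ETS core ACTTCCT (9.35% of windows) occurred at 2 places in Cxcr3 and in none of the other 6 windows. GGTGTGA, the half-site of T-box factors (3.98%), and GGGTGTG, a KLF box (7.95%), which share the letters GGTGTG, were found in none of the 7.

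The mutant library held 14513059 UMIs (unique molecular identifiers, 1 per captured RNA molecule) and the wildtype library 15385199. Cells with at least 800 UMIs, at least 200 genes and at most 10% mitochondrial UMIs numbered 4190 in the mutant, with a median of 1968 UMIs, and 5225 in the wildtype, with a median of 2036. Marker UMIs, with no receptor among the markers, placed 3235 mutant and 4221 wildtype cells in 8 types, and the defining markers of each type were present in both libraries. Mvk itself had 47 UMIs in the mutant against 65 in the wildtype cells, a difference within counting error, and since the V377I allele changes 1 residue this does not check the labels. Only 28 cell barcodes occurred in both libraries, against 29.7 from their numbers, and 7 of them were of the same type. Erythroid RNA stood apart: it made up 2442 to 3531 CPM (counts per 1000000 UMIs of the summed cells of a type) of the 8 types in the mutant and 235 to 462 in the wildtype, and its part in the results was not tested. Free RNA, read from barcodes with at most 20 UMIs, was estimated to make up 5.45% to 14.9% of the UMIs of a type or group.

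Receptor RNA sorted the blood types in much the same way in both libraries. S1pr1 was highest in CD8-negative naive-like T cells, Ccr7 was high in naive-like T and B-like cells, Cxcr3 and Cxcr6 were highest in memory-like T cells, Ccr9 in CD8 naive-like T cells, S1pr5 in NK-like cells and non-classical-like monocytes, Ccr2 in classical-like monocytes and Cx3cr1 in non-classical-like monocytes. Of 72 pairs of a gene and a cell type, 30 had at least 50 UMIs over both libraries and were compared. In 1 pair the mutant was higher by at least 1.5-fold with an interval off 1, in 4 it was lower by that rule, and in 25 neither held. The 5 pairs were Cxcr4 in NK-like cells (higher), Cxcr3 and Cxcr6 in CD8-negative memory-like T cells, Cxcr6 in CD8 memory-like T cells and Ccr2 in classical-like monocytes (all lower). Among all genes with 50 UMIs, the rule was met in the higher and in the lower direction for 1.71% and 1.27% in CD8-negative naive-like T cells, 2.74% and 3.05% in CD8-negative memory-like T cells, 1.75% and 1.25% in CD8 naive-like T cells and 2.61% and 1.77% in CD8 memory-like T cells. In B-like cells these shares were 2.56% and 1.70%, in NK-like cells 2.17% and 2.84%, in classical-like monocytes 4.25% and 4.55% and in non-classical-like monocytes 3.26% and 2.70%. Of the members measured, 2 of 5 were lower in CD8-negative memory-like T cells, 1 of 4 in CD8 memory-like T cells and 1 of 1 in classical-like monocytes, and 1 of 7 was higher in NK-like cells. Levels of different receptors are not compared with each other here.

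**Figure D1:**
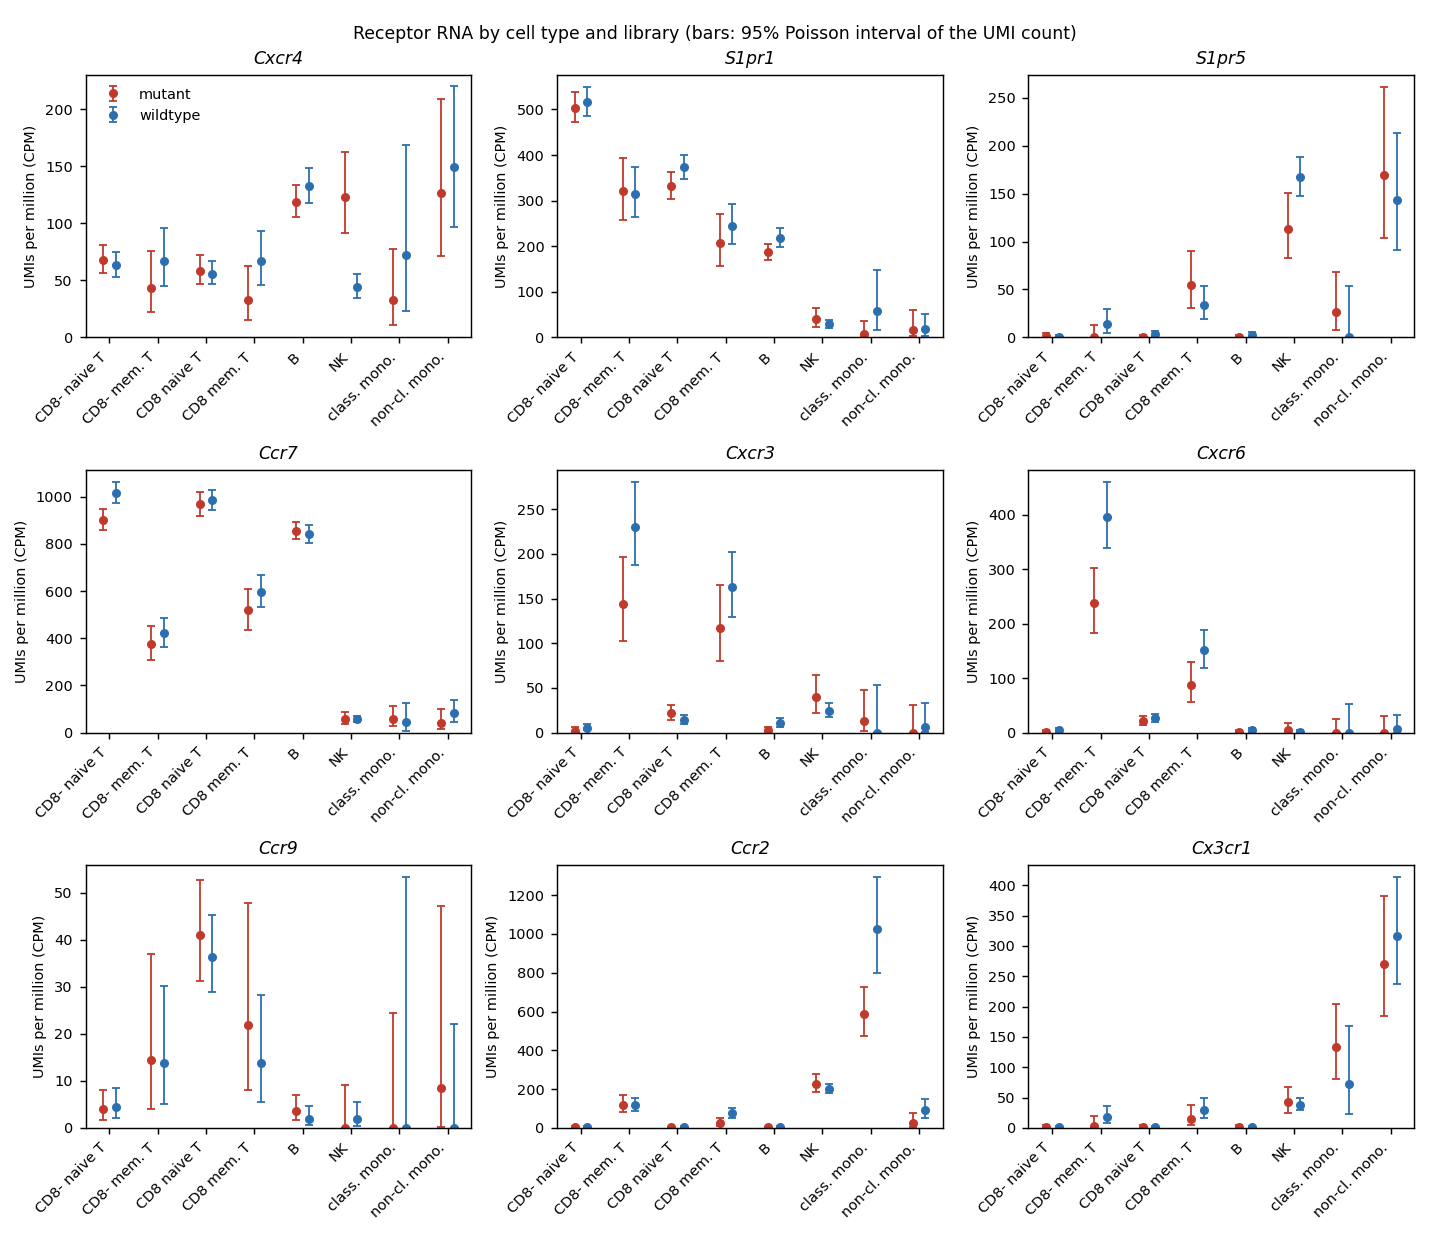
Level of each receptor gene (CPM, vertical axis from 0, scaled for each gene) in 8 cell types of the mutant (red) and wildtype (blue) library, with 95% Poisson intervals of the UMI count. Points of both libraries lie close together for S1pr1 and Ccr7, and apart for Cxcr4 in NK cells (123 against 44.2 CPM), Cxcr6 in CD8-negative memory T cells (238 against 396) and Ccr2 in classical monocytes (589.7 against 1024).

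**Figure D2:**
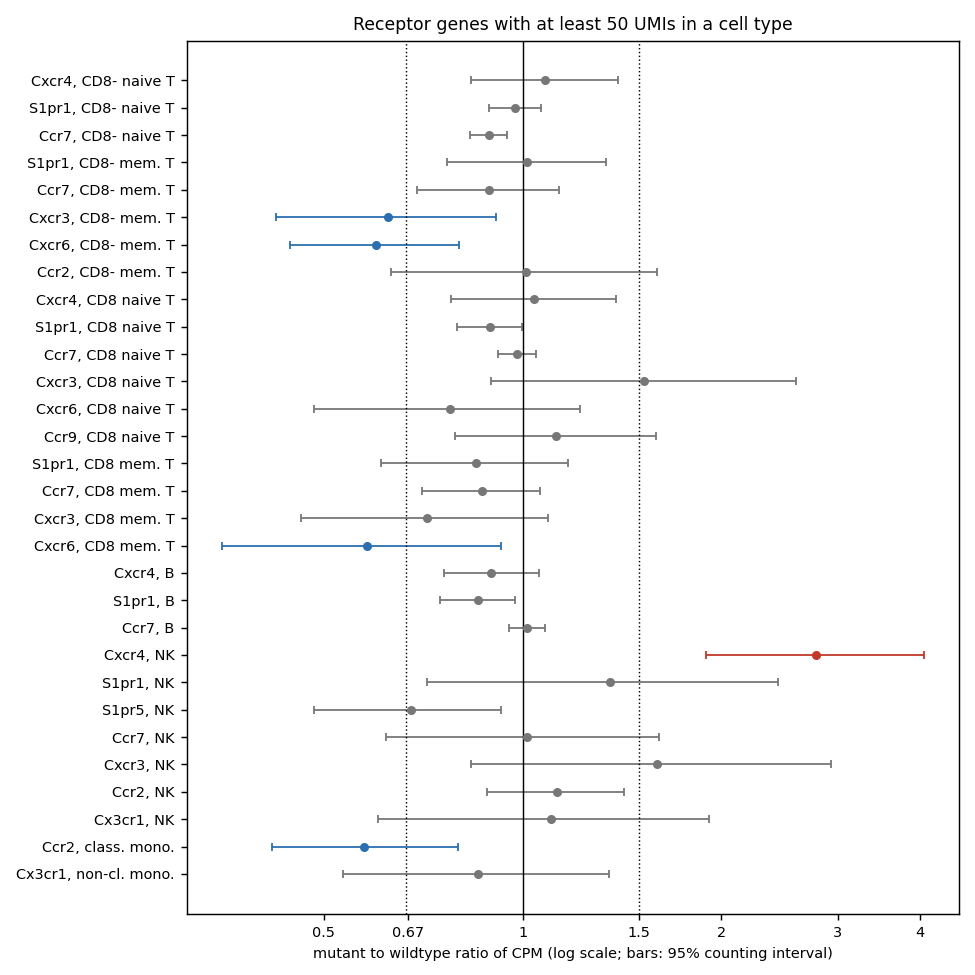
Mutant to wildtype ratio of CPM (log axis) with its 95% counting interval for the 30 pairs of gene and cell type with at least 50 UMIs. Dotted lines mark 1.5-fold in either direction: 1 pair (red) is higher and 4 pairs (blue) are lower by the rule, and 25 (grey) are not.

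S1pr1, the receptor for lymphocyte egress, was abundant in every T and B population and differed little between the libraries. In CD8-negative naive-like T cells, defined by the absence of a Cd8a or Cd8b1 UMI and with a Cd4 UMI in 22.7% and 22.4% of cells, it stood at 504 CPM in the mutant (896 UMIs) and 517 in the wildtype (1041 UMIs), a ratio of 0.975 (0.891 to 1.07). CD8 naive-like T cells had less, 333 and 373 CPM, and their intervals did not reach those of the CD8-negative cells in either library. CD8-negative memory-like T cells held 321 and 315 CPM, a level that CD8 naive-like cells matched within counting error. CD8 memory-like T cells (208 and 245 CPM) and B-like cells (187 and 218 CPM) followed and overlapped each other. The B-cell ratio of 0.854 (0.750 to 0.973) lay off 1, as did that of CD8 naive-like T cells, 0.892 (0.795 to 0.9996). Both were well inside 1.5-fold. NK-like cells had 39.4 and 29.0 CPM, of which free RNA could supply 17.7 and 15.7, and the intervals of both kinds of monocyte overlapped those of NK-like cells.

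S1pr5, the egress receptor of NK cells, was seen mainly in non-classical-like monocytes and NK-like cells, which overlapped each other. The monocytes had 169 CPM in the mutant (20 UMIs) and 143 in the wildtype (24 UMIs). NK-like cells had 113 CPM in the mutant (46 UMIs) and 167 in the wildtype (265 UMIs). The mutant NK level was lower, with a ratio of 0.677 (0.484 to 0.928), just inside the 1.5-fold limit, so it was not counted. A UMI was found in 22.6% of mutant and 25.8% of wildtype NK-like cells, against 0.0812% and 0.457% of B-like cells, whose median depth was 1584.5 and 1584 UMIs. CD8 memory-like T cells came next with 54.8 and 33.3 CPM on 15 and 17 UMIs. Free RNA held 2 UMIs of S1pr5 in the mutant against 18 in the wildtype, and these libraries held 186 and 859 NK-like cells.

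Cxcr4, the marrow retention receptor, was the 1 member higher in the mutant by the rule. NK-like cells held 50 UMIs in the mutant, 123 CPM (91.3 to 162), and 70 UMIs in the wildtype, 44.2 CPM (34.4 to 55.8). These intervals did not overlap, and the ratio was 2.78 (1.90 to 4.06). The RNA was spread over many cells: 43 of 186 mutant cells had a UMI, 23.1% (17.3 to 29.8), and 66 of 859 wildtype cells, 7.68% (5.99 to 9.67), with no cell above 3 UMIs. The mutant NK-like cells were deeper, with a median of 1987 UMIs against 1651. After every cell was thinned to 800 UMIs the shares were 8.60% and 2.91%. Free RNA held 129 CPM of Cxcr4 in the mutant against 102 in the wildtype and could supply 10.0 and 7.03 CPM of the NK-like levels. The summed NK markers were lower in the mutant NK-like cells, 6112 against 7976 CPM, and markers of B cells stood at 212 against 124 CPM (9 of 9 genes detected in both) and of platelets at 86.1 against 19.6 CPM (5 and 6 of 6 genes), and the part of these in the Cxcr4 difference was not tested.

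In the other types Cxcr4 did not differ by the rule. B-like cells had 119 and 133 CPM (294 and 287 UMIs), a ratio of 0.896 (0.759 to 1.06), and CD8-negative and CD8 naive-like T cells had ratios of 1.08 (0.835 to 1.40) and 1.04 (0.780 to 1.39). Non-classical-like monocytes had 127 and 149 CPM, so the mutant NK-like level was close to that of B-like cells and these monocytes, while the wildtype NK-like level was below both. Memory-like T cells were on the other side of 1, with 43.2 against 66.8 CPM in CD8-negative and 32.9 against 66.7 CPM in CD8 cells, but each rested on fewer than 50 UMIs and its interval included 1.

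Ccr7, the lymph node receptor, differed little between the libraries. CD8 naive-like T cells had 968 CPM in the mutant against 987 in the wildtype, and CD8-negative naive-like T cells 903 and 1017. The ratio in the latter, 0.888 (0.831 to 0.948), was off 1 and small. B-like cells had 856 and 842 CPM, with a ratio of 1.02 (0.954 to 1.08). Memory-like T cells held less in both libraries, 518 and 598 CPM in CD8 and 375 and 421 CPM in CD8-negative cells. A UMI was present in 74.8% and 81.0% of CD8-negative naive-like cells and in 40.5% and 39.2% of CD8-negative memory-like cells. NK-like cells showed 59.0 and 58.1 CPM, of which free RNA could supply 48.1 and 45.6 CPM, and monocyte levels were of the same size, which is a level near background.

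Cxcr6, which guides memory-type lymphocytes to liver and mucosa, was concentrated in memory-like T cells and was lower there in the mutant. CD8-negative memory-like T cells had 66 UMIs in the mutant, 238 CPM (184 to 302), and 172 UMIs in the wildtype, 396 CPM (339 to 460). The intervals did not overlap, and the ratio was 0.600 (0.445 to 0.802). A UMI was found in 26 of 126 mutant cells, 20.6% (13.9 to 28.8), and in 57 of 186 wildtype cells, 30.6% (24.1 to 37.8), against 0.325% and 0.274% of B-like cells. Median depth was 2049.5 and 2236.5 UMIs in these T cells, and thinning to 800 UMIs gave 10.3% (5.61 to 17.0) and 19.4% (13.9 to 25.8). The counting intervals of the shares thus overlapped, both raw and thinned. The most Cxcr6 UMIs in 1 of these cells was 11 and 8, and the interval of the ratio does not cover such clustering. In CD8 memory-like T cells the levels were 87.6 CPM (24 UMIs) and 151 CPM (77 UMIs), a ratio of 0.580 (0.351 to 0.928), and 11 of 100 mutant and 40 of 174 wildtype cells had a UMI. Elsewhere Cxcr6 reached 20.8 and 26.8 CPM in CD8 naive-like T cells and at most 5.96 CPM in B-like, NK-like, CD8-negative naive-like and monocyte cells.

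Cxcr3, the receptor of interferon-induced chemokines, was also highest in both kinds of memory-like T cells. CD8-negative memory-like T cells had 144 CPM in the mutant (40 UMIs) and 230.2 in the wildtype (100 UMIs), a ratio of 0.626 (0.422 to 0.911). CD8 memory-like T cells had 117 CPM (32 UMIs) and 163 CPM (83 UMIs), and the ratio of 0.718 (0.462 to 1.09) did not leave 1. A UMI was seen in 21.4% (14.6 to 29.6) of mutant and 32.8% (26.1 to 40.0) of wildtype CD8-negative memory-like cells, so the counting intervals of the shares overlapped, whereas B-like cells had 0.487% and 1.01%. NK-like cells (39.4 and 24.6 CPM, ratio 1.60, 0.834 to 2.93) and CD8 naive-like T cells (21.5 and 14.1 CPM, ratio 1.53, 0.897 to 2.60) were on the other side of 1 with intervals that included it.

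The memory-like T class is broad, and marker levels inside it differed between the libraries, not all in the same direction. NK markers were at 198 CPM in the mutant against 290 in the wildtype CD8-negative memory-like cells (7 and 8 of 8 genes detected), regulatory T markers at 443 and 336 CPM, and 7 genes known from innate-like T cells at 155 and 111 CPM. A UMI of any of these 3 sets was present in 80 of 126 mutant cells and in 119 of 186 from the wildtype. In the cells with such a UMI, Cxcr6 stood at 309 and 482 CPM, a ratio of 0.640 (0.465 to 0.873), and Cxcr3 at 152 and 273 CPM, a ratio of 0.557 (0.351 to 0.860). In the 46 and 67 cells without one, Cxcr6 was at 80.9 and 202 CPM, a ratio of 0.400 (0.147 to 0.941) on 7 and 27 UMIs, but Cxcr3 was nearly level at 127 and 135 CPM, a ratio of 0.943 (0.402 to 2.11). In CD8 memory-like cells NK markers were at 139 CPM in the mutant against 216 in the wildtype (5 and 7 of 8 genes), and a UMI of the 3 sets was present in 47 of 100 and 101 of 174 cells. Among CD8 memory-like cells without these UMIs the Cxcr6 ratio turned to 1.14 (0.493 to 2.57), on 12 and 16 UMIs, against 0.429 (0.210 to 0.805) in the cells with one. This division was made after the values were seen, and the part of these cells in the differences was not tested. With only the CD8-negative cells that held a Cd4 UMI, the Cxcr3 ratio was 0.928. That rests on few cells. A Cd4 UMI was present in 18.3% of mutant and 28.0% of wildtype CD8-negative memory-like cells, with Cd4 at 104 and 150 CPM.

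Ccr9, the gut homing receptor, was low and, of the 8 types, highest in CD8 naive-like T cells. They had 59 UMIs in the mutant, 40.9 CPM, and 80 in the wildtype, 36.3 CPM, and a UMI in 8.64% and 8.18% of cells. The ratio was 1.13 (0.790 to 1.60). CD8-negative naive-like T cells had 3.94 and 4.47 CPM, with a UMI in 0.767% and 0.937% of cells, and the intervals of both naive populations were apart in each library. Memory-like T cells lay between, from 13.7 to 21.9 CPM on 4 to 7 UMIs. In the mutant the intervals of CD8 memory-like (8.04 to 47.7 CPM) and CD8 naive-like cells (31.1 to 52.8 CPM) overlapped, and in the wildtype they were apart. CD8-negative memory-like cells overlapped CD8 naive-like cells in both libraries. NK-like cells had 0 of 186 and 3 of 859 cells with a UMI, and the count of 0 allows up to 1.61% of cells with a UMI, which does not limit the share of cells expressing the gene.

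Ccr2, which classical monocytes need to leave the marrow, was highest in classical-like monocytes and lower there in the mutant. The level was 589.7 CPM (474 to 726) from 38 mutant cells and 1024 CPM (800 to 1292) from 17 wildtype cells, a ratio of 0.576 (0.417 to 0.798). A UMI was found in 26 of 38 and 15 of 17 cells, and the most in 1 cell was 15 and 11. Platelet markers, which were at 2008 CPM in the mutant against 1082 in the wildtype classical-like monocytes (6 and 5 of 6 genes detected), moved with this result, and their part was not tested. Barcodes chosen by platelet markers held Ccr2 at 372 and 422 CPM, but monocyte-like cells were not removed from them, so they may include these monocytes. NK-like cells held the next level, 226 and 201 CPM (ratio 1.13, 0.884 to 1.43), and CD8-negative memory-like T cells 119 and 117 CPM (ratio 1.01, 0.633 to 1.60). In CD8 memory-like T cells Ccr2 had 7 UMIs in the mutant against 38 in the wildtype, 25.6 and 74.5 CPM, which is below the 50 UMIs asked for and gave a ratio of 0.343 (0.129 to 0.777).

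Cx3cr1, the receptor of membrane-bound CX3CL1, ordered the types as non-classical-like monocytes (270.4 and 316 CPM), classical-like monocytes (133 and 72.1 CPM) and NK-like cells (41.8 and 37.9 CPM). The first ratio was 0.856 (0.534 to 1.35) and the last 1.10 (0.604 to 1.92). The classical-like values rested on 20 and 5 UMIs. Their interval overlapped that of non-classical-like monocytes in the mutant, and that of NK-like cells in the wildtype. T and B cells had at most 29.4 CPM.

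T-like cells were then divided by the naive share of their naive and memory marker UMIs, in 5 steps of 20%, which needs no cut between the classes. Ccr7 climbed along this scale in CD8-negative cells from 290.3 to 894 CPM in the mutant and from 312 to 1036 in the wildtype, and S1pr1 from 309 to 540.1 and from 306 to 516. Cxcr6 went the other way, from 286 CPM to 0 UMIs in the mutant and from 499 to 4.55 CPM in the wildtype, and Cxcr3 from 167 CPM to 0 UMIs and from 281 to 3.03 CPM. Ccr2 dropped from 148 to 5.87 and from 156 to 1.52 CPM, and at the memory end the libraries' intervals overlapped for Ccr2 and Cxcr3 and were apart for Cxcr6. Cxcr4 showed no slope common to both libraries: 38.1 to 84.2 CPM in the mutant and 74.9 to 75.8 in the wildtype. In CD8-positive cells Ccr7 went from 346 to 1090.0 and from 493 to 1026 CPM.

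**Figure D3:**
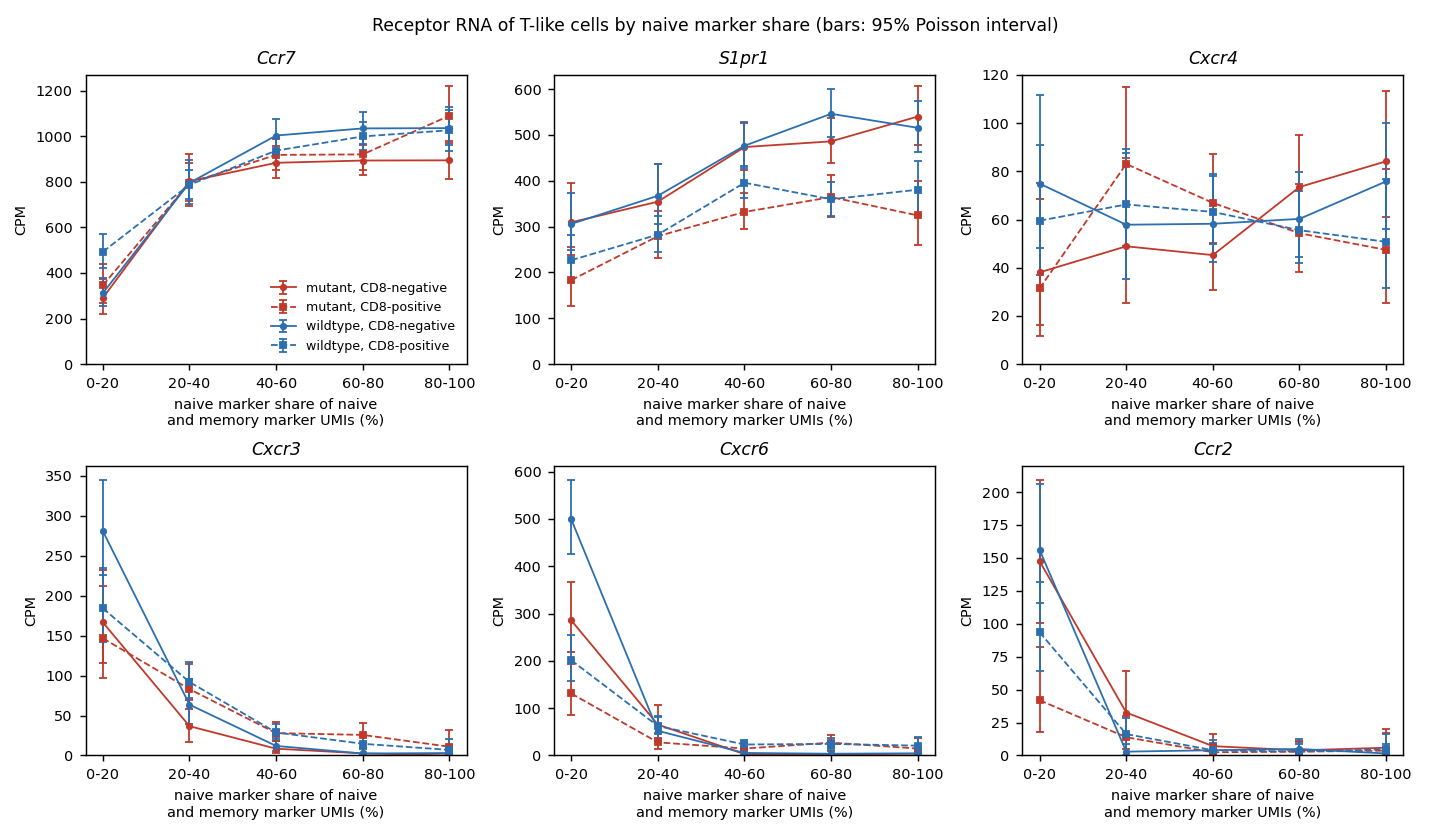
Level (CPM, axis from 0) of 6 receptor genes in T-like cells against the naive marker share of their naive and memory marker UMIs, in steps of 20%, for CD8-negative (solid) and CD8-positive (dashed) cells of the mutant (red) and wildtype (blue) library, with 95% Poisson intervals. Ccr7 and S1pr1 are lowest in the first step, Cxcr3, Cxcr6 and Ccr2 are highest there, and Cxcr6 in the first step of CD8-negative cells stands at 286 against 499 CPM.

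NK-like cells were divided into early cells, with more UMIs of Cd27, Kit and other immature markers, and late cells, with more of Klrg1, Zeb2 and other mature markers. In late NK cells, 121 in the mutant against 591 in the wildtype, Cxcr4 was at 123 CPM (31 UMIs) against 36.9 CPM (40 UMIs), a ratio of 3.32 (2.01 to 5.45). Of all genes with 50 UMIs, 1.84% were higher and 2.66% lower by the rule in these cells, and 1.58% and 3.72% in early cells. In early NK cells, 29 and 104, Cxcr4 was at 135 and 85.2 CPM on 9 and 20 UMIs, a ratio of 1.59 (0.636 to 3.65). The wildtype early cells thus lay above the wildtype late cells, with intervals that did not overlap (52.1 to 132 against 26.4 to 50.3 CPM), and the mutant early and late cells were alike within counting error. Median depths were 1958 UMIs in mutant and 1653 in wildtype late cells. S1pr5 was higher in late cells of the wildtype (190.3 against 98.0 CPM) and stood at 135 against 75.2 CPM in the mutant, where the intervals overlapped. Ccr2 went the other way in the wildtype, 379 CPM in early and 155 in late cells, with intervals apart, and was 301 and 194 CPM in the mutant, where they overlapped. Cx3cr1 was at 63.4 and 54.5 CPM in late cells and had no UMI in 29 and 104 early cells, which allows up to 10.3% and 2.88% of cells with a UMI and does not limit the share expressing the gene; in late cells 11.6% and 7.78% had one.

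B-like cells were divided into transitional-like, follicular-like and a group with UMIs of Zbtb32, Bhlhe41 and further genes. Ccr7 was 741 and 709 CPM in transitional-like, 1100.0 and 993 in follicular-like and 286 and 278 in Zbtb32 cells. Cxcr4 was 37.8 and 45.6 CPM in Zbtb32 cells against 141 in follicular-like cells of both libraries. No member met the rule in these groups, where of all genes 3.88% were higher and 2.73% lower (transitional-like), 2.46% and 1.70% (follicular-like) and 2.77% and 2.52% (Zbtb32). Cxcr3, with 7 mutant and 23 wildtype UMIs in all B-like cells, had 2 UMIs in 1 of 127 mutant and 18 UMIs in 6 of 85 wildtype Zbtb32 cells, 3.28 and 43.2 CPM, with a ratio of 0.0760 (0.00856 to 0.318) on fewer than 50 UMIs. The most Cxcr3 UMIs in 1 wildtype cell was 7, and the counting interval does not cover such clustering. Cxcr6 had 1 UMI in 1 mutant cell and 8 UMIs in 2 wildtype cells of this group. Whether T cell RNA had a part in these counts was not tested. The Zbtb32 cells were deep, with medians of 4591 and 4441 UMIs.

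**Figure D4:**
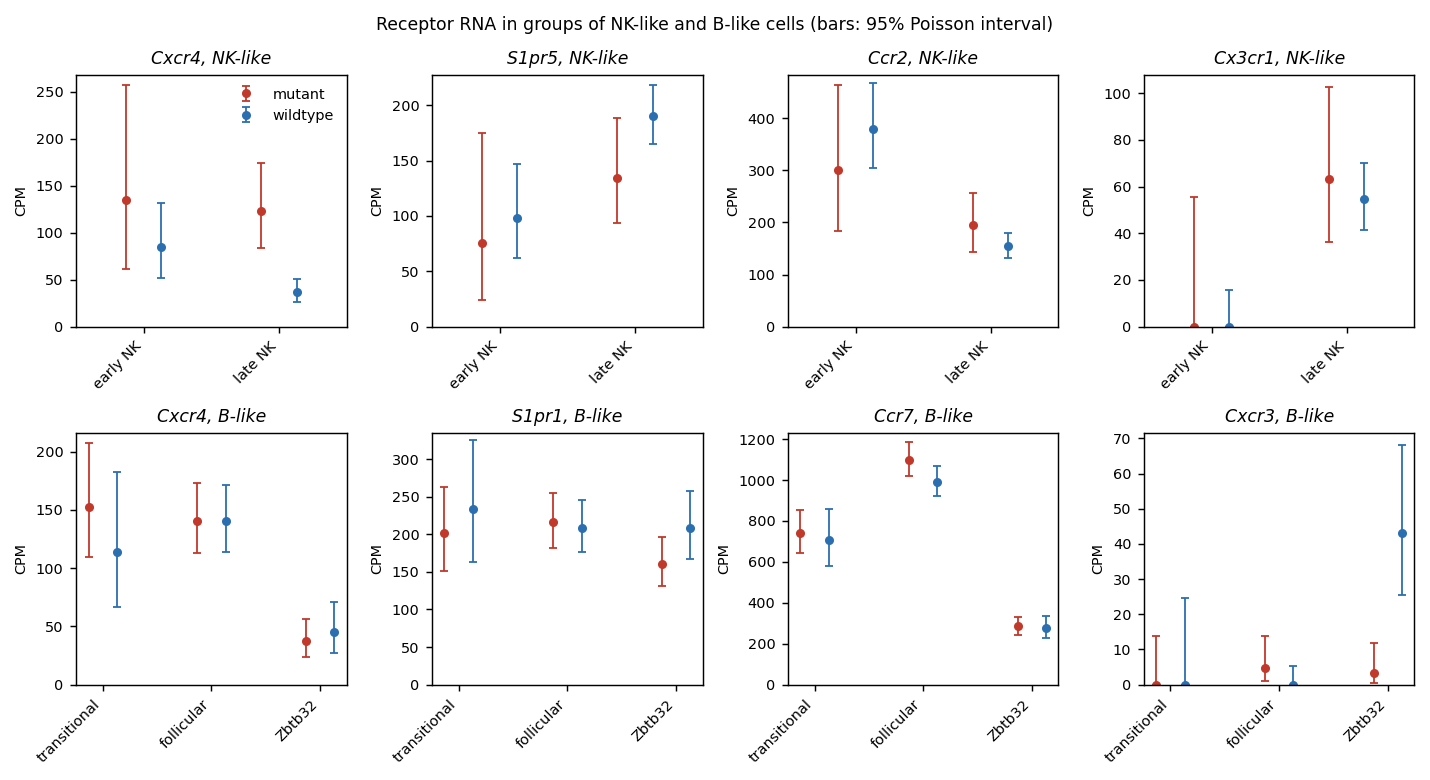
Level (CPM, axis from 0) of 4 receptor genes in early and late NK-like cells (top) and of 4 in 3 groups of B-like cells (bottom) of the mutant (red) and wildtype (blue) library, with 95% Poisson intervals. Cxcr4 in late NK cells lies at 123 CPM in the mutant against 36.9 in the wildtype, and Cx3cr1 is at 0 in early NK cells of both.

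Pairs of receptors were also read in the same cells, as a description, since detection follows depth. In NK-like cells Ccr2 and Cx3cr1 were found together in 2 mutant and 2 wildtype cells, where the product of their shares gives 5.08 and 10.9. In CD8-negative memory-like T cells Cxcr6 and Ccr7 met in 3 mutant and 15 wildtype cells, where the product gives 10.5 and 22.4, and Cxcr3 and Cxcr6 met in 8 and 27 cells, where it gives 5.57 and 18.7. After thinning to 800 UMIs the former pair met in 1 and 4 cells (product 2.79 and 8.90), the latter in 1 and 8 cells (1.13 and 5.23), and Ccr2 with Cx3cr1 in 0 and 1 NK-like cells (0.484 and 2.91). Few cells remain in these thinned counts. Ccr7 and S1pr1 met in 398 mutant and 486 wildtype CD8-negative naive-like cells, close to the 395 and 482.5 of the product. Cxcr4 and S1pr5 met in 11 mutant and 22 wildtype NK-like cells, for which the product gives 9.71 and 17.1.

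Other genes of trafficking were read from 5 lists. Of 20 measured genes for control and signalling of the receptors in NK-like cells, 1 was higher and 1 lower: Gna13, a G protein subunit that limits migration, had a ratio of 1.66 (1.10 to 2.46), and Rgs1, which dampens chemokine receptor signals, 0.586 (0.491 to 0.695). The median log2 ratio of this list was 0.12, against -0.02 for all genes measured there. None of the 13 adhesion genes measured in NK-like cells met the rule in either direction. In CD8-negative memory-like T cells 1 of 3 lipid and chemoattractant receptors was lower, Gpr183, the oxysterol receptor EBI2 (0.574, 0.373 to 0.863), and of 17 signalling genes Rgs2 was lower (0.613) and Rgs10 higher (1.59). Gpr183 was also lower in CD8 naive-like T cells (105 and 163 CPM, ratio 0.642, 0.527 to 0.778), as 1 of 5 measured genes of its list. In CD8 memory-like T cells Rgs1 was higher (1.61, 1.19 to 2.18) as 1 of 18 genes, and Itgb1, an integrin chain that also served as a memory marker, was lower (0.636) as 1 of 9. In B-like cells Ccr6 was lower (0.566, 0.406 to 0.782) as 1 of 2 other chemokine receptors, and Gpr174, a lysophosphatidylserine receptor, was lower (0.637) as 1 of 6 lipid and chemoattractant receptors. No measured gene of the 5 lists met the rule in CD8-negative naive-like T cells or in either kind of monocyte. In the CD8-negative naive-like T cells 20 signalling and 11 adhesion genes were measured.

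The genes most like each receptor were sought by Pearson's r of log2(CPM + 10) over 16 points, 8 types in each library, among 6392 genes, as a description, since all points of a library share its depth and free RNA. Cxcr3 was most like Cd160 (r = 0.91), and Cxcr6 like Ikzf2 (0.92), which is among the regulatory T markers used here, and Rora (0.92). S1pr5 was most like Nab1 (0.94), Map7d1 (0.92) and Sephs2 (0.90), Ccr2 like Psma4 (0.93), Cox6c (0.92) and AI662270 (0.92), and Cx3cr1 like Flna (0.97), Sgk1 (0.96) and Ptpre (0.96). S1pr1 was most like Crbn (0.97), Rps13 (0.97) and Pacsin1 (0.96), and Ccr7 like the ribosomal protein genes Rps27rt, Rps20 and Rps26 (each 0.98). No gene passed 0.9 for Ccr9. Among the members themselves, r was 0.92 for S1pr1 with Ccr7 and 0.92 for Cxcr3 with Cxcr6.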

How the data were processed

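The deposited files hold raw UMI counts of 10x 3' v2 libraries, made by the authors with Cell Ranger 2.1.1 on mm10, per the submitters' processing notes, for all 737280 barcodes. The receptor genes, lists and markers were chosen with earlier results of these data known, and the rule that turns marker UMIs into types was set after marker distributions were seen, without receptor values. A lineage needed at least 4 marker UMIs and 3 times those of any other lineage. It also needed 3 times the UMIs of neutrophil, basophil, dendritic and platelet markers, and at most 10% erythroid UMIs in the cell. T-like cells with no Cd8a or Cd8b1 UMI were CD8-negative, and those with one and no Cd4 UMI were CD8. Naive-like cells had at least as many naive as memory marker UMIs, and memory-like cells at least 3 times as many memory as naive, with at least 3 such UMIs. Within 1 UMI of the naive cut lay 502 mutant and 583 wildtype T-like cells, and of the memory cut 89 and 120. T-like cells between the cuts (438 and 531) or with both CD4 and CD8 UMIs (38 and 67), monocytes between the kinds (13 and 15) and cells given no lineage (466 and 391) were left out. How many of the last exceeded the erythroid limit was not counted. Cells with markers of several lineages stayed unassigned, and no doublet caller was used for the values reported (Scrublet scores served only an alternative). UMIs were summed per type and library and given as CPM with exact Poisson intervals. Ratios carry exact conditional and shares Clopper-Pearson intervals, and the limit for a count of 0 is 3 counts. A gene was measured at 50 UMIs over both libraries, and counted at 1.5-fold with an interval off 1. Named besides the receptors were list genes past this rule, at most 3 per list and type with the bound nearest 1 farthest from it, and up to 3 genes with r over 0.9; the likeness result for Cxcr4 is not reported here. Symbols listed more than once (Itgam, Ccl19, Ccl21a) were left out of the list counts. Free RNA was scaled to each type by markers of other lineages. Interval methods were tested on simulated data. Software was Python 3.11.15, numpy 2.4.6, scipy 1.17.1, pandas 2.3.3 and scanpy 1.11.5.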

Additional observations from a re-analysis of the deposited data

How the results depend on the processing

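No paired analysis was possible because each genotype has 1 library. Alternatives were at least 1500 UMIs per cell, at most 5% mitochondrial UMIs, removal of Scrublet scores above 0.2 (69 mutant and 129 wildtype cells), thinning to 800 UMIs, subtraction of free RNA, another total, stricter lineage or naive and memory cuts, CD8-negative T cells with a Cd4 UMI, and Leiden clusters made without the receptors. An alternative chosen after seeing the data left out T cells with NK, regulatory or innate-like T marker UMIs. The rule itself was also set at 2-fold, or at a minimum of 20 UMIs. The number of pairs higher by the rule was 0 instead of 1 after thinning, since fewer Cxcr4 UMIs than the minimum then remained in NK-like cells. The number lower was 1 instead of 4 after thinning, 0 at a threshold of 2-fold, and 1 when T cells with those markers were left out. Under the others it was 3 to 6, with 1 higher in each. The minimum of 20 UMIs took in Ccr2 in CD8 memory-like T cells and Cxcr3 in B-like cells as lower. After thinning, Cxcr3 in CD8-negative memory-like T, Cxcr6 in CD8 memory-like T and Ccr2 in classical-like monocyte cells fell under 50 UMIs. With the marked T cells left out, the memory-like T pairs did so too. The Cxcr6 ratio in CD8-negative memory-like cells was then 0.400 (0.147 to 0.941). Over these alternatives the Cxcr4 ratio ranged from 2.45 to 3.14 in NK-like and from 3.02 to 3.87 in late NK cells, and Ccr2 in classical-like monocytes from 0.547 to 0.656. No Leiden cluster took the classical-like class. Cxcr6 in CD8-negative memory-like T cells ranged from 0.400 to 0.709 and Cxcr3 there from 0.560 to 0.943. Cxcr6 in CD8 memory-like T cells ranged from 0.439 to 1.14, and turned to 1.14 where cells with those markers were left out. The cause was not tested. With Leiden clusters, Cxcr3 in the cluster named for CD8 memory-like T cells was 1.09 in place of 0.718. Of the 606 cells in that cluster, only 24.6% were in that class. Of all ratios recomputed, 362 stayed within the main counting interval, 16 moved out of it and 1 reversed. Reversal was looked for only in pairs that met the rule. Other ratios that crossed 1, such as that of Cxcr3 in CD8 memory-like T cells, are therefore not counted as reversed. S1pr1 in NK-like cells was 2.72 after thinning in place of 1.36, on 10 mutant and 17 wildtype UMIs, fewer than the 50 asked for. Depth limits what can be said of the 42 pairs under 50 UMIs.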

Other observations

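Barcodes chosen by markers of other cell types carried some of the receptors, but monocyte-like cells counted above were not removed from these barcodes. Those with markers of plasmacytoid dendritic cells, 3 in the mutant and 14 in the wildtype, held 4 and 25 UMIs of Ccr9, 359 and 436 CPM, and in the wildtype 11 of the 14 had a UMI. Both values exceed the 40.9 and 36.3 CPM of CD8 naive-like T cells. Barcodes with dendritic cell markers, 8 and 3, held 48 and 15 UMIs of Ccr2, 840.3 and 967 CPM, in 7 and 3 of them. Barcodes with platelet markers, 48 in the mutant and 11 in the wildtype, held 51 and 17 UMIs of Ccr2, 372 and 422 CPM, and 8 and 3 UMIs of Cx3cr1. Basophil-marker barcodes, 9 and 13, held 2 and 5 UMIs of Ccr2.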
